A study of Yarrowia lipolytica with 9 samples.

Results

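In the oleaginous yeast Yarrowia lipolytica, 6 genes at the entry to fatty acid synthesis were followed: ACL1 and ACL2, the malic enzyme gene, ACC1, FAS1 and FAS2. They were picked by accession, by a rule that names the genes and uses no measured value, but with earlier results of these data known. They make up 6 of the 6145 features in the deposited files. All 6 were found in both files, and all passed the filter on low counts (at least 10 counts in at least 3 samples), as did 6037 features in all. Their accessions and identifiers are XM_504787.1 (YALI0E34793g) for ACL1, XM_503231.1 (YALI0D24431g) for ACL2, XM_504112.1 (YALI0E18634g) for the malic enzyme, XM_501721.1 (YALI0C11407g) for ACC1, XM_500912.1 (YALI0B15059g) for FAS1 and XM_501096.1 (YALI0B19382g) for FAS2. In the RefSeq annotation of assembly ASM176148v1 (strain W29) the 6 accessions lie on the chromosomes that the letters of these identifiers name: E, D, E, C, B and B. No other annotated gene overlaps any of them there.

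ATP citrate lyase, whose subunits ACL1 and ACL2 encode, splits cytosolic citrate into acetyl-CoA and oxaloacetate. It is a hallmark of oleaginous yeasts and is lacking in Saccharomyces cerevisiae. Acetyl-CoA carboxylase, the biotin enzyme encoded by ACC1, converts acetyl-CoA to malonyl-CoA, the committed step of fatty acid synthesis. Fatty acid synthase then builds saturated acyl chains from both. In fungi it is a complex of equal numbers of alpha and beta subunits, encoded by FAS2 and FAS1. Malic enzyme decarboxylates malate to pyruvate and is often discussed in oleaginous fungi as a source of NADPH, the reductant of the synthase. Acetyl-CoA is also where the mevalonate pathway to beta-carotene starts.

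RNA was sequenced from 3 strains, each from cultures grown for 96 h at 28 °C and 250 rpm, with 3 samples per strain. Yl_5_2, a colony chosen for its deep yellow, carried extra Yl-SPT15 cassettes with amino acid changes in the first and the fifth cassette. Yl_5_3, a colony chosen for its light yellow, carried cassettes with an amino acid change in the second only, and the control Yl_5_1 (labelled ctrl) carried wild-type cassettes alone. Yl-SPT15 is the likely counterpart of the TATA-binding protein gene SPT15 of S. cerevisiae. All strains derive from ATCC 201249, which carries ura3, leu2 and lys8 mutations and PEX17-HA. They share the beta-carotene genes crtE, crtB, crtI and crtY in the rDNA. By the paper, transcripts were profiled in SC, a defined medium, which in its methods lacked uracil and leucine. The cassettes were joined to a Leu2 marker, directed to the GUT2 locus and driven by the GPAT, YAT1, XPR2, FBA and LEU promoters. Each mutant strain is 1 picked colony, so the cassettes cannot be told apart from any other difference between colonies. The labels do not say whether the 3 samples of a strain came from separate cultures, and p-values measure only the spread between these samples.

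Total counts ran from 17771507 to 23288547 per sample. TMM factors, which scale libraries so that most features do not change, ran from 0.952 to 1.055. Levels are given as deposited FPKM (counted reads scaled to the length of the feature and to the total of the sample), which allow genes of different length to be compared. Changes between strains were tested on counts by edgeR's quasi-likelihood test with TMM factors over all 9 samples, and p-values were adjusted over the 6037 features by the Benjamini-Hochberg method. CPM below means the counts of a gene scaled to a common library size with the TMM factors. Counts are relative to the other transcripts of a sample, so fewer transcripts per cell and a larger pool of other transcripts cannot be told apart.

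The 6 genes differed widely in level. Averaged over the samples of a strain, ACL1 and ACL2 lay between 295 and 389 FPKM in all 3 strains, above at least 89.9% of features. FAS1 came next, with 119 FPKM in Yl_5_2, 99.6 FPKM in Yl_5_3 and 177 FPKM in Yl_5_1. ACC1 and the malic enzyme were nearer the median feature, which stood at 47.2 FPKM in Yl_5_2, 41.0 FPKM in Yl_5_3 and 45.0 FPKM in Yl_5_1. FAS2 was the lowest of the 6 in every strain: only 25.5% of features were lower in Yl_5_2, 16.4% in Yl_5_3 and 30.5% in Yl_5_1. Together the 6 genes took from 0.227% to 0.267% of the counts in the samples of Yl_5_2, from 0.203% to 0.208% in those of Yl_5_3 and from 0.304% to 0.335% in those of Yl_5_1. These ranges do not overlap. They are shares of total counts, without TMM factors. Those factors ran from 1.034 to 1.055 in Yl_5_2 and from 0.952 to 0.961 in Yl_5_3, so TMM scaling makes the gap between the mutants smaller.

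**Figure D1:**
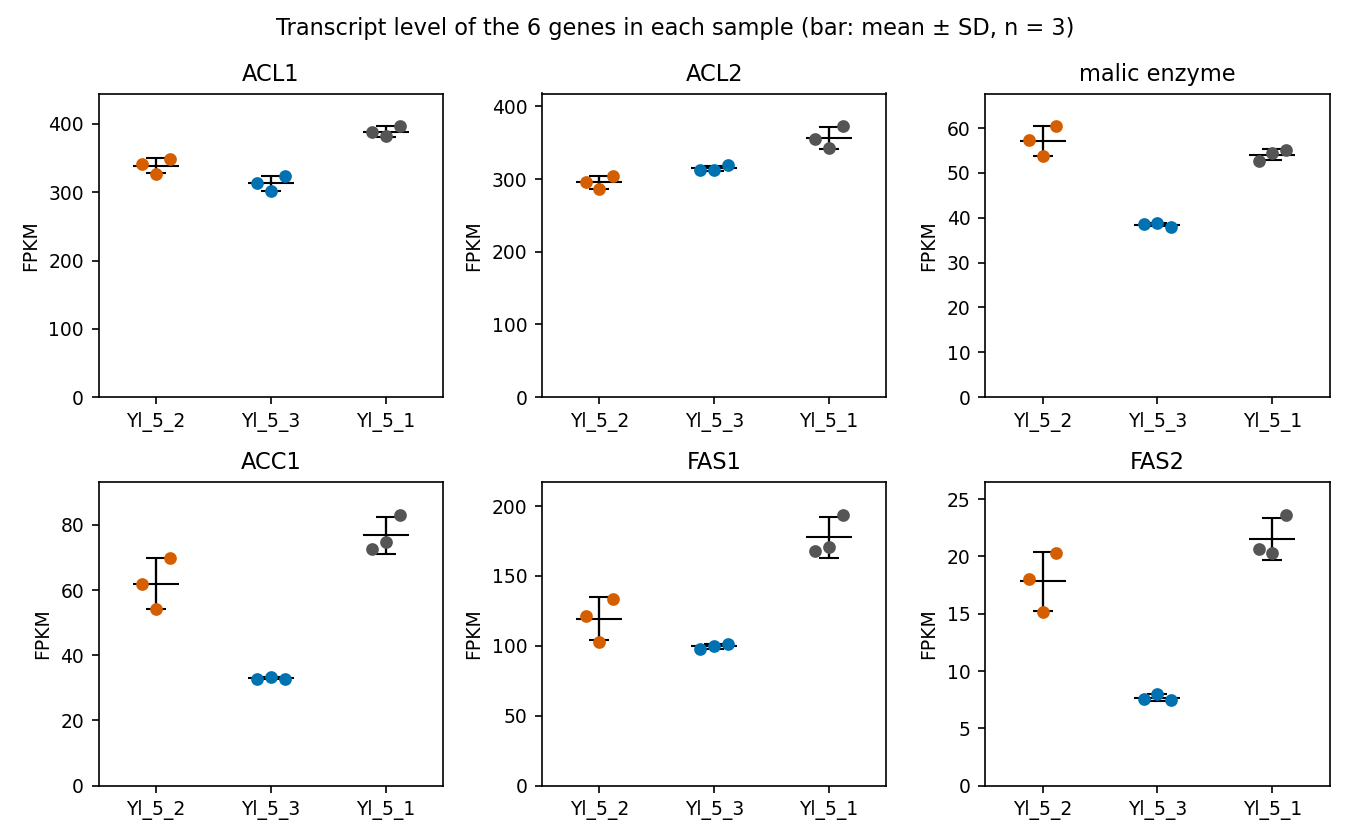
FPKM (vertical axis, from 0) of each of the 6 genes in the 3 samples of Yl_5_2, Yl_5_3 and Yl_5_1; points are samples and bars are the mean ± SD (n = 3). The Yl_5_1 samples are the highest for both lyase genes, ACC1 and FAS1, the Yl_5_3 samples stand clearly lowest for malic enzyme, ACC1 and FAS2, and FAS2 reaches 23.7 FPKM at most.

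In Yl_5_2, 5 of the 6 genes were down-regulated relative to Yl_5_1 at an adjusted p under 0.05, where 30.0% of all tested features fell, and none rose, where 27.4% of all tested features did. The exception was the malic enzyme. The paper had already listed ACC1, FAS1 and FAS2 as down-regulated in Yl_5_2 from these data, so their falls are not a new result. The median log2 fold change of the 6 genes was -0.34, beside -0.01 over all tested features, and no member changed by more than 2-fold at an adjusted p under 0.001, as 3.01% of tested features did in either direction. In CPM, the 3 samples of Yl_5_2 lay below all samples of Yl_5_1 for the same 5 genes, as they did for 31.5% of tested features. In Yl_5_3, all 6 genes were down-regulated relative to Yl_5_1, where 29.7% of all tested features fell and 25.6% rose, and the samples of all 6 lay below those of Yl_5_1, as did 33.1% of tested features. Their median log2 fold change was -0.60, beside 0.00 over all tested features. ACC1 and FAS2 were the 2 members that fell by more than 2-fold at an adjusted p under 0.001, a condition that 3.13% of tested features met in that direction. Both comparisons use the same 3 samples of Yl_5_1. When libraries were scaled by their totals alone, 61.7% and not 47.7% of the features called in Yl_5_2 rose, and 31.8% and not 46.3% of those called in Yl_5_3. In Yl_5_3, 5 and not 6 members passed with median-of-ratios factors, with DESeq2, and without sample 3 of Yl_5_1, sample 1 of Yl_5_3 or sample 2 of Yl_5_3, the call lost each time being that of ACL2.

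**Figure D2:**
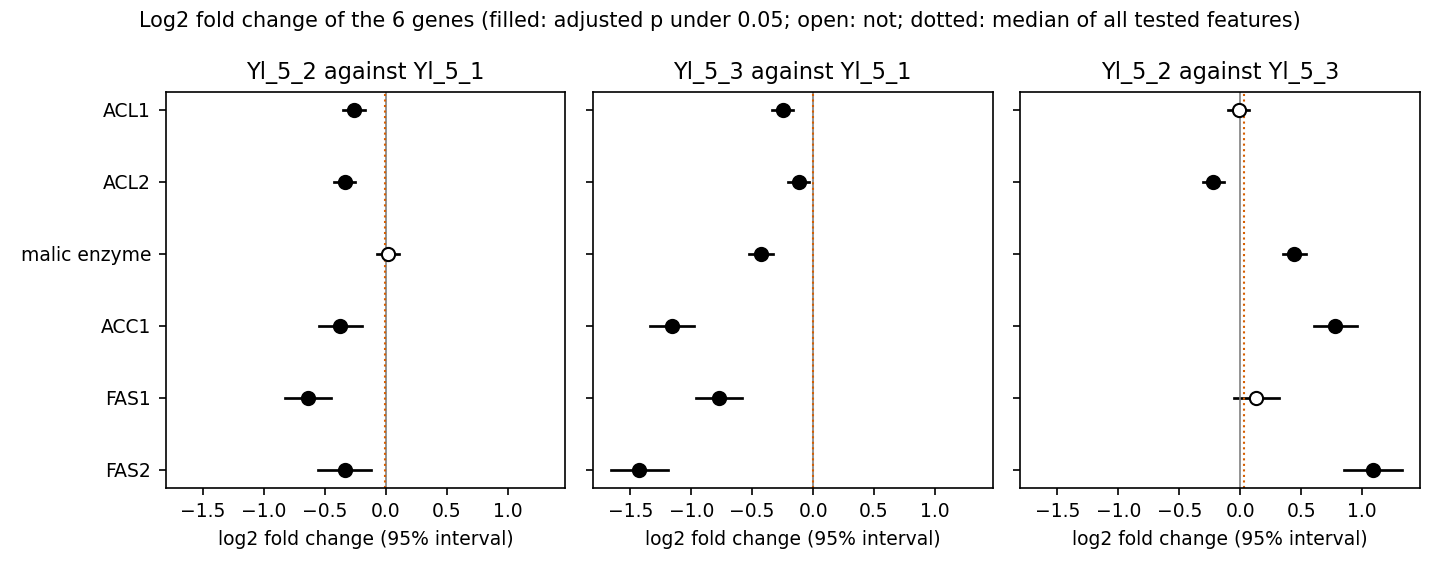
Log2 fold change of each gene with its 95% interval in Yl_5_2 against Yl_5_1, Yl_5_3 against Yl_5_1 and Yl_5_2 against Yl_5_3 (edgeR, TMM scaling); filled points passed an adjusted p of 0.05. In Yl_5_3 the intervals of ACC1 and FAS2 lie well to the left of those of the lyase genes, while in Yl_5_2 FAS1 has the largest fall, of -0.64.

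ACL1 had 341, 327 and 348 FPKM in the samples of Yl_5_2, 314, 302 and 323 FPKM in those of Yl_5_3, and 388, 382 and 397 FPKM in those of Yl_5_1. All samples of both mutant strains were below all samples of the control. The fall was of like size in both: relative to Yl_5_1 the log2 change in Yl_5_2 was -0.26 (standard error 0.04, edgeR adjusted p = 3.96e-05) and that in Yl_5_3 was -0.25 (standard error 0.04, edgeR adjusted p = 7.4e-05). Between the mutants no difference was detected after TMM scaling. The log2 fold change of Yl_5_2 over Yl_5_3 was -0.01, with a 95% interval from -0.10 to 0.07. By total counts it was 0.11 (edgeR adjusted p = 0.0178), and in FPKM every Yl_5_2 sample was above every Yl_5_3 sample, so this order depended on the scaling.

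ACL2, the partner subunit, had 296, 286 and 304 FPKM in Yl_5_2, 313, 313 and 319 FPKM in Yl_5_3, and 355, 343 and 373 FPKM in Yl_5_1. The 3 strains did not overlap. In Yl_5_2 it fell by 0.34 on the log2 scale relative to Yl_5_1 (standard error 0.04, edgeR adjusted p = 2.47e-06). In Yl_5_3 the fall was the smallest of the 6 genes, -0.12 on the log2 scale (95% interval -0.20 to -0.03, edgeR adjusted p = 0.0211), and smaller in size than that of 63.5% of tested features. This call was lost with median-of-ratios factors (-0.09, edgeR adjusted p = 0.0796), with DESeq2 (-0.09, adjusted p = 0.0892), and without sample 3 of Yl_5_1 (-0.08, edgeR adjusted p = 0.106), sample 1 of Yl_5_3 (-0.11, edgeR adjusted p = 0.0736) or sample 2 of Yl_5_3 (-0.11, edgeR adjusted p = 0.0716). Set against each other, Yl_5_2 was below Yl_5_3 by a log2 fold change of -0.22 (standard error 0.04, edgeR adjusted p = 0.000148). By total counts this difference shrank to -0.0931, at the edge of the threshold (edgeR adjusted p = 0.0478), and on log2(FPKM + 1) to -0.0932 (limma adjusted p = 0.0461). ACL2 was thus the one member that was lower in Yl_5_2 than in Yl_5_3.

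The malic enzyme gene had 57.2, 53.8 and 60.4 FPKM in Yl_5_2, 38.6, 38.8 and 38.0 FPKM in Yl_5_3, and 52.7, 54.5 and 55.05 FPKM in Yl_5_1. The samples of Yl_5_2 and Yl_5_1 overlapped, and those of Yl_5_3 stood apart below both. No change was detected in Yl_5_2: the log2 fold change against Yl_5_1 was 0.02 (edgeR adjusted p = 0.769), with a 95% interval from -0.08 to 0.11. In Yl_5_3 the gene fell by 0.43 on the log2 scale relative to Yl_5_1 (standard error 0.04, edgeR adjusted p = 5.04e-07). Yl_5_2 was higher than Yl_5_3 by a log2 fold change of 0.44 (standard error 0.04, edgeR adjusted p = 1.73e-07).

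ACC1, which makes malonyl-CoA, had 62.0, 54.2 and 69.7 FPKM in Yl_5_2, 32.7, 33.5 and 32.8 FPKM in Yl_5_3, and 72.6, 74.6 and 83.2 FPKM in Yl_5_1. The strains formed 3 separate steps, with Yl_5_3 far below the others. The mean CPM was 403 ± 46.6 in Yl_5_2, 234 ± 2.59 in Yl_5_3 and 523 ± 42.1 in Yl_5_1 (SD, n = 3 each). The log2 fold change against Yl_5_1 was -0.37 in Yl_5_2 (standard error 0.08, edgeR adjusted p = 0.00217) and -1.16 in Yl_5_3 (standard error 0.08, edgeR adjusted p = 6.66e-07). Only 2.60% of tested features had a lower log2 fold change in Yl_5_3. Between the mutants ACC1 was 1.72-fold higher in Yl_5_2, or 0.78 in log2 (standard error 0.08, edgeR adjusted p = 8.46e-06).

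FAS1, the beta subunit gene, had 122, 103 and 133 FPKM in Yl_5_2, 97.7, 99.9 and 101 FPKM in Yl_5_3, and 168, 171 and 194 FPKM in Yl_5_1. Both mutants were below every control sample. The fall relative to Yl_5_1 was to 0.642-fold in Yl_5_2, or -0.64 in log2 (standard error 0.08, edgeR adjusted p = 7.79e-05), and to 0.586-fold in Yl_5_3, or -0.77 in log2 (standard error 0.08, edgeR adjusted p = 2.13e-05). In Yl_5_2 this was the largest fall of the 6 genes, and only 1.51% of tested features had a lower log2 fold change. The mutants were not distinguished from each other after TMM scaling: the log2 fold change of Yl_5_2 over Yl_5_3 was 0.13 (edgeR adjusted p = 0.189), with a 95% interval from -0.06 to 0.32. It passed the threshold by total counts (0.26, edgeR adjusted p = 0.0226) and without sample 2 of Yl_5_2 (0.22, edgeR adjusted p = 0.00583).

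FAS2, the alpha subunit gene, which carries the acyl carrier and ketoacyl synthase domains of the enzyme, had 18.0, 15.1 and 20.3 FPKM in Yl_5_2, 7.53, 7.997 and 7.45 FPKM in Yl_5_3, and 20.6, 20.3 and 23.7 FPKM in Yl_5_1. In FPKM the top sample of Yl_5_2 touched the lowest of Yl_5_1, while Yl_5_3 was below all others by a wide margin. The counts behind these values ran from 1578 to 2026 in Yl_5_2, from 735 to 961 in Yl_5_3 and from 2121 to 2667 in Yl_5_1. FAS2 fell in Yl_5_2 by 0.34 on the log2 scale relative to Yl_5_1 (standard error 0.10, edgeR adjusted p = 0.0138). In Yl_5_3 it fell to 44.4 ± 1.57 CPM, against 120 ± 11.1 CPM in Yl_5_1 (SD, n = 3 each), which is 0.372-fold. That was the largest fall of the 6 genes in this strain, a log2 fold change of -1.43 (standard error 0.10, edgeR adjusted p = 1.87e-06), and 1.56% of tested features had a lower one. Yl_5_2 was 2.13-fold above Yl_5_3, a log2 fold change of 1.09 (standard error 0.10, edgeR adjusted p = 8.41e-06).

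Set directly against each other, Yl_5_2 was higher than Yl_5_3 in 3 of the 6 genes (malic enzyme, ACC1 and FAS2), where 36.5% of all tested features were higher, and lower in ACL2 alone, where 30.9% were lower. ACL1 and FAS1 did not pass. The CPM of the strains did not overlap for these 4 genes, as for 72.1% of tested features, and FAS2 alone passed the condition of more than 2-fold at an adjusted p under 0.001, as 5.75% of tested features did. The median log2 fold change of the 6 genes was 0.29, beside 0.03 over all tested features. From the highest to the lowest CPM, the order of the strains was Yl_5_1, Yl_5_2 and Yl_5_3 for ACC1 and FAS2, with every neighbouring pair past the test. For FAS1 the order was the same, but Yl_5_2 and Yl_5_3 did not differ beyond their spread. For ACL2 it was Yl_5_1, Yl_5_3 and Yl_5_2, all past the test, and for ACL1 the mutants could not be ordered. For the malic enzyme Yl_5_2 and Yl_5_1 could not be ordered, and both were above Yl_5_3.

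A ratio of genes within a sample does not depend on the scaling between libraries, so the subunit ratios were taken from FPKM in each sample. ACL1 and ACL2 were close to 1 to 1 everywhere. The ratio of ACL1 to ACL2 was 1.153, 1.145 and 1.147 in Yl_5_2, 1.005, 0.965 and 1.01 in Yl_5_3, and 1.09, 1.11 and 1.06 in Yl_5_1. The strains did not overlap, although the shifts were small. The difference of the mean log2 ratio was 0.08 for Yl_5_2 against Yl_5_1 (95% interval 0.02 to 0.13), -0.13 for Yl_5_3 against Yl_5_1 (-0.21 to -0.05) and 0.21 for Yl_5_2 against Yl_5_3 (0.15 to 0.27).

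The synthase subunits were far from 1 to 1. The FPKM ratio of FAS1 to FAS2 was 6.74, 6.81 and 6.57 in Yl_5_2, 13.0, 12.5 and 13.6 in Yl_5_3, and 8.12, 8.43 and 8.20 in Yl_5_1. It was lower than in the control in every sample of Yl_5_2 and higher in every sample of Yl_5_3, and the spread within a strain was small beside these steps. The mean ratio was 6.71 ± 0.121 in Yl_5_2, 13.0 ± 0.554 in Yl_5_3 and 8.25 ± 0.161 in Yl_5_1 (SD, n = 3 each). On the log2 scale the difference was -0.30 for Yl_5_2 against Yl_5_1 (95% interval -0.36 to -0.24), 0.66 for Yl_5_3 against Yl_5_1 (0.55 to 0.77) and -0.96 for Yl_5_2 against Yl_5_3 (-1.06 to -0.85). In Yl_5_2 FAS1 fell more than FAS2, and in Yl_5_3 FAS2 fell more than FAS1. The level of the ratio rests on feature lengths of 6261 bases for FAS1 and 5553 for FAS2, which the files imply, and the raw count ratios were higher still, from 7.41 to 15.3. How reads falling on more than one feature were counted is not given in the sources used here, and the part of such reads in the low FAS2 level was not tested. A length or a loss that is the same in every sample leaves the differences between strains as they are.

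ACC1 was also set against the synthase, taken as the geometric mean of FAS1 and FAS2. This ratio was 1.32, 1.37 and 1.34 in Yl_5_2, 1.205, 1.184 and 1.196 in Yl_5_3, and 1.24, 1.27 and 1.23 in Yl_5_1. It stayed within a narrow band although ACC1 itself spanned more than 2-fold. The band holds for the mean of the subunits and not for each of them. For Yl_5_2 over Yl_5_3 the log2 fold change of ACC1, 0.78, lay between 0.13 for FAS1 and 1.09 for FAS2. Relative to ACC1, the 2 subunits thus shifted in opposite directions between the mutants. The log2 difference was 0.11 for Yl_5_2 against Yl_5_1 (95% interval 0.06 to 0.17), -0.06 for Yl_5_3 against Yl_5_1 (-0.10 to -0.01) and 0.17 for Yl_5_2 against Yl_5_3 (0.12 to 0.22). With 1 FPKM added to each value, the difference for Yl_5_3 against Yl_5_1 was -0.0914. In each of the 9 ratio comparisons the samples of the strains did not overlap. These comparisons are 3 ratios on the same 9 samples. How often ratios of other pairs of features separate in this way was not computed. The exact two-sided permutation test gave p = 0.1 for each comparison, also after Benjamini-Hochberg adjustment over the 9. That is the smallest p that 3 samples against 3 can give, so none could pass 0.05.

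**Figure D3:**
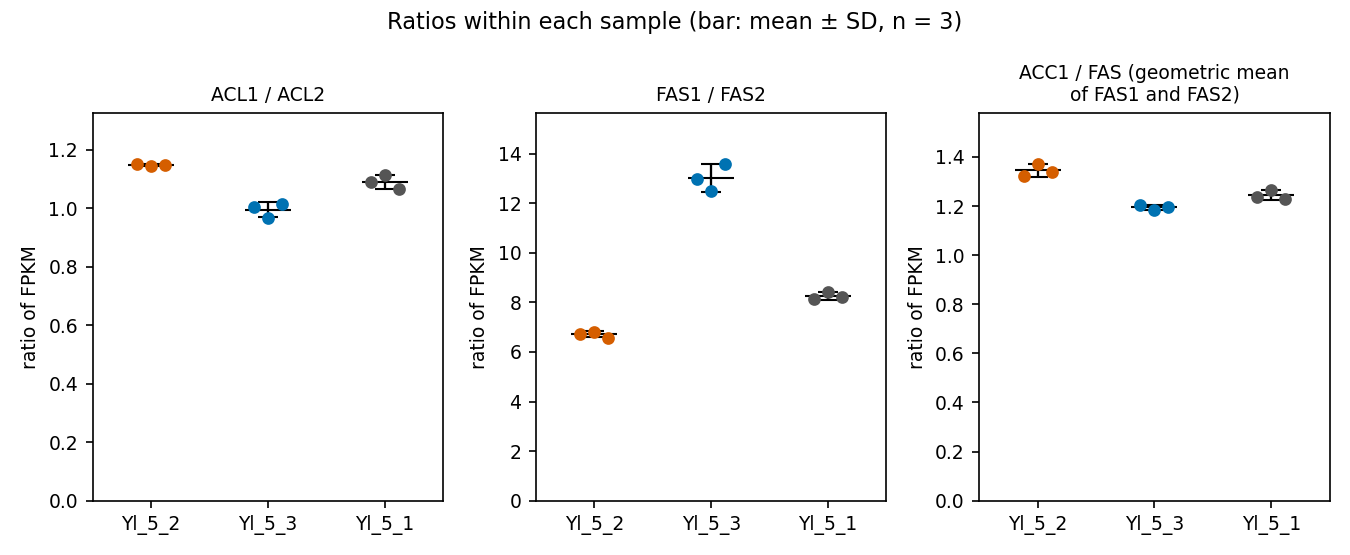
Ratio of FPKM within each sample (vertical axes, from 0) for ACL1 to ACL2, FAS1 to FAS2, and ACC1 to the geometric mean of FAS1 and FAS2, in Yl_5_2, Yl_5_3 and Yl_5_1; points are samples and bars the mean ± SD (n = 3). The FAS1 to FAS2 ratio is near 13.0 in Yl_5_3, 6.71 in Yl_5_2 and 8.25 in Yl_5_1, while the other ratios move little.

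The replicate spread of the genes was not alike. The pooled SD of log2 CPM within strains was 0.12 for ACC1, 0.13 for FAS1 and 0.14 for FAS2, beside a median of 0.07 over all tested features. It was 0.04 for ACL1 and ACL2 and 0.05 for the malic enzyme. ACC1, FAS1 and FAS2 also deviated together in Yl_5_2 and Yl_5_1. In sample 2 of Yl_5_2 they were below the strain mean by log2 deviations of -0.17, -0.19 and -0.21. In sample 3 of Yl_5_2 they were above it by 0.16, 0.16 and 0.18. In Yl_5_1 sample 3 was the highest for all 3 genes, above the strain mean by 0.13, 0.14 and 0.15. In Yl_5_3 the deviations of the 3 genes stayed between -0.03 and 0.06 and were not always of one sign. In sample 3 of Yl_5_3, FAS1 was at 0.03 and FAS2 at -0.03. Over the 9 samples the correlation of these deviations was 0.986 for ACC1 with FAS1, 0.9747 for ACC1 with FAS2 and 0.957 for FAS1 with FAS2. The malic enzyme followed with 0.900 to 0.951. Its deviation had the same sign as that of ACC1 in only 6 of the 9 samples, FAS1 in 5 and FAS2 in 7. ACL1 with ACL2 gave 0.780, with the same sign in 8. The lyase genes were not apart from ACC1, FAS1 and FAS2: with them ACL2 gave 0.7308 to 0.7935 and ACL1 gave 0.4647 to 0.6654. The genes share libraries and scaling factors, so these correlations are descriptions. The 95% intervals of the fold changes of ACC1, FAS1 and FAS2 were also wider than those of the other genes.

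**Figure D4:**
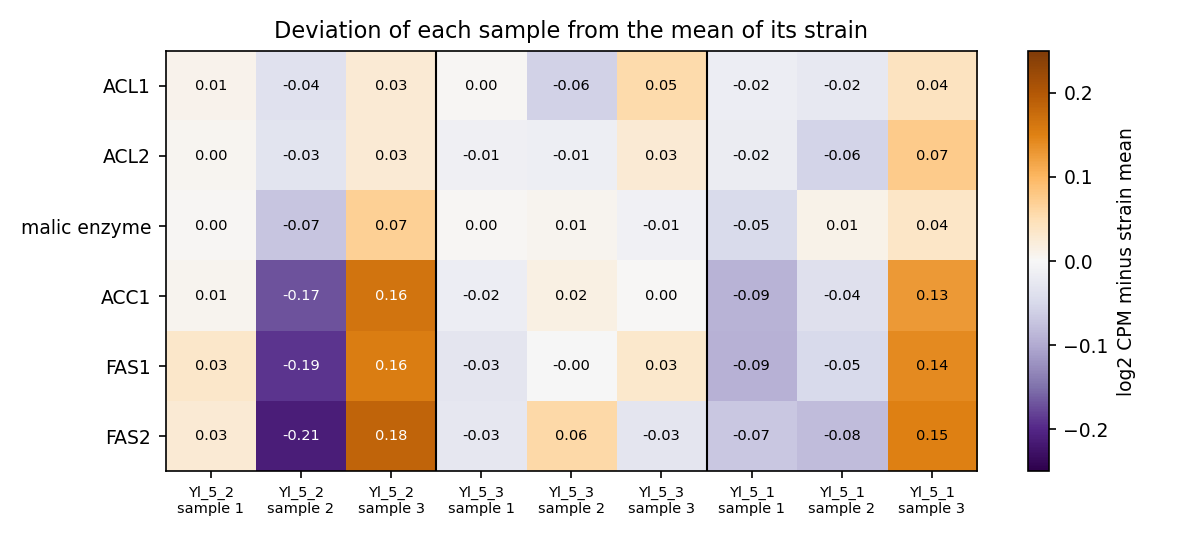
Log2 CPM of each gene (rows) in each of the 9 samples (columns) minus the mean of its strain, as colour and number. ACC1, FAS1 and FAS2 are jointly low in sample 2 of Yl_5_2 (down to -0.21) and jointly high in sample 3 of Yl_5_2 and sample 3 of Yl_5_1, while the samples of Yl_5_3 and the rows of ACL1 and ACL2 stay near 0.

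Across all 9 samples, profiles of log2 CPM were compared by Pearson's r, over samples that share strains and libraries. Among all 6036 other tested features, ACC1 had FAS2 as its most similar feature and FAS2 had ACC1, at r = 0.995. FAS1 was not near its partner: for FAS1, FAS2 ranked 406th in similarity (r = 0.793) and ACC1 ranked 250th (r = 0.848), while ACL1 ranked 29th (r = 0.956). ACL1 in turn had FAS1 at rank 17, ahead of its own partner ACL2, at rank 380 (r = 0.791). The malic enzyme was closest to FAS2 among the 6 (r = 0.963, rank 241). ACL2 shared least with the others, with r from -0.168 for the malic enzyme to 0.791 for ACL1. The 9 samples fall into 3 strains and are not independent points.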

How the data were processed

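Total RNA of 3 samples each of Yl_5_2, Yl_5_3 and Yl_5_1 was made into NEBNext Ultra libraries and read on an Illumina HiSeq platform as paired ends. The authors deposited raw read counts per feature and FPKM values of the same features. FPKM equals the count divided by a fixed length and the sample total (largest relative spread of the implied length 9.98e-10 over 5379 features), so it carries no other scaling. The submitters' processing notes name HTSeq 0.6.1 and DESeq 1.18.0, without their role. The aligner and the genome build are not given in the sources used here. All 18 sample columns were mapped by sample title and the number of unused columns was 0.

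Counts were analysed with edgeR 4.0.16 (R 4.3.3), by its quasi-likelihood test with robust dispersions in a single model of the 9 samples with a term for each strain. Libraries were scaled by TMM. A feature was kept where 3 or more samples had 10 or more counts, which left 6037, and p-values were adjusted over these by Benjamini-Hochberg. The standard error of a fold change was derived from its F value, and 95% intervals from that error. Calls used an adjusted p under 0.05. Ratios were compared by exact permutation, with 95% intervals from the pooled SD of the 2 strains. Scripts were tested on simulated counts. No pair of samples of a strain agreed within sampling noise (chi-square per degree of freedom at least 3.37).

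The 6 genes, the tests and the lists were chosen with earlier results of these data known. The named genes were all 6 members and, for each, the feature with the most similar profile. A list of 20 further enzymes around acetyl-CoA and NADPH could not be matched, because the table of 8689 RefSeq genes used here pairs no accession with YALI0 identifiers or products. The levels of Yl-SPT15 and GUT2 were not analysed here for the same reason. Alternatives were other scalings, DESeq2 1.42.0, limma 3.58.1 on log2(FPKM + 1) and log2(FPKM + 0.1), other count filters, 6-sample fits, a replicate block, unadjusted p-values and leaving out each sample.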

Additional observations from a re-analysis of the deposited data

Results flagged for a closer look

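For 3 ratios, every sample of Yl_5_2 lay on one side of the Yl_5_1 samples and every sample of Yl_5_3 on the other. How often ratios of other pairs of features separate in this way was not computed. The log2 difference of Yl_5_2 minus Yl_5_3 was 0.21 for ACL1 to ACL2, -0.96 for FAS1 to FAS2 and 0.17 for ACC1 to the synthase mean. With 3 samples against 3, the exact permutation test of these differences could not go below p = 0.1.

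For 4 genes the direct test found that the transcript level differed between the mutant strains. The same test called 4070 of the 6037 tested features between these strains, so such a call was common. The CPM of the strains did not overlap for 72.1% of tested features. The log2 fold change of Yl_5_2 over Yl_5_3 was -0.22 for ACL2 (edgeR adjusted p = 0.000148), 0.44 for the malic enzyme (1.73e-07), 0.78 for ACC1 (8.46e-06) and 1.09 for FAS2 (8.41e-06), and for each gene all 3 samples of one strain were above all 3 of the other. By total counts the difference of ACL2 was only -0.0931 (edgeR adjusted p = 0.0478).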

How the results depend on the processing

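Of the 18 gene levels tested (6 genes in 3 comparisons), all 18 kept their call, or the lack of one, with upper quartile factors, no count filter, at least 50 counts in every sample, 6-sample fits and unadjusted p-values. Total counts moved the median of all features in Yl_5_2 against Yl_5_3 to 0.16 on the log2 scale, against 0.03 with TMM, and 71.3% and not 54.1% of called features were then higher. ACL1 in that comparison was -0.01 and became 0.11 with total counts and with limma on either log2 FPKM scale, which use the same scaling. FAS1 there was 0.13 and became 0.26 with total counts and 0.25 with limma on either scale, past the threshold, and 6 of the 6 genes then passed in that comparison; FAS1 lay from 0.053 to 0.22 with each sample left out. ACL2 there was -0.22 and shrank to -0.0931 with total counts and to -0.0932 and -0.0935 with limma, with adjusted p from 0.0461 to 0.0478. ACL2 in Yl_5_3 against Yl_5_1 became -0.0918 with median-of-ratios factors and with DESeq2, short of the threshold, and lay from -0.15 to -0.075 with each sample left out. The cause was not tested. Adding 1 FPKM moved the ratio of ACC1 to the synthase in Yl_5_3 against Yl_5_1 to -0.0914, against -0.0569, and that of FAS1 to FAS2 to 0.55, against 0.66. A linear model over the 9 samples, which cannot change the estimates, passed 0.05 in each ratio comparison: 0.076, -0.13 and 0.21 for ACL1 to ACL2, -0.30, 0.66 and -0.96 for FAS1 to FAS2, and 0.11, -0.057 and 0.17 for ACC1 to the synthase. Over all tested features, samples with the same number did not deviate together in most pairs (correlations from -0.22 to 0.17, over 0.1 in 3 of 9 pairs), and neither the labels nor this check pairs them. For ACL1, ACL2 and FAS1, however, sample 2 was below and sample 3 above the strain mean in all 3 strains. FAS1 in sample 2 of Yl_5_3 was practically at the mean, with a log2 deviation of -0.0011. With the replicate block 5, 6 and 4 genes were called, as without it, the edgeR adjusted p in Yl_5_2 against Yl_5_1 became 3.17e-07 for FAS1 and 0.00151 for FAS2, and 2 of 6 samples in each comparison correlated best with their own number. FAS2 had the fewest counts, down to 735 in a sample. Its call in Yl_5_2 against Yl_5_1 held in every setting. It came nearest the threshold in the 6-sample fit (edgeR adjusted p = 0.0445) and with total counts (edgeR adjusted p = 0.0384).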

Other observations

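Apart from the pair ACC1 and FAS2, each gene had as its most similar profile over the 9 samples a feature outside the 6, given here by accession only, since the files carry no names. For FAS1 it was XM_504844.1 (r = 0.9895), with 9.66 ± 1.21 FPKM in Yl_5_2, 7.79 ± 0.279 FPKM in Yl_5_3 and 15.5 ± 0.521 FPKM in Yl_5_1 (SD, n = 3 each). For ACL1 it was XM_504448.1 (r = 0.973), with 461 ± 9.72 FPKM in Yl_5_2, 432 ± 1.19 FPKM in Yl_5_3 and 512 ± 7.84 FPKM in Yl_5_1 (SD, n = 3 each), a level above that of ACL1 in each strain. For ACL2 it was XM_504421.1 (r = 0.989), with 167 ± 2.19 FPKM in Yl_5_2, 160 ± 0.627 FPKM in Yl_5_3 and 173 ± 2.71 FPKM in Yl_5_1 (SD, n = 3 each). For the malic enzyme it was XM_502269.1 (r = 0.997), with 8.33 ± 0.692 FPKM in Yl_5_2, 5.02 ± 0.0452 FPKM in Yl_5_3 and 7.70 ± 0.282 FPKM in Yl_5_1 (SD, n = 3 each). These correlations describe 9 samples of 3 strains and carry no test.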
